A study of Mus musculus with 6 samples.

Results

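Rab proteins are small GTPases that direct membrane traffic inside the cell, and the 59 genes described here are the protein-coding genes of the mouse count table whose symbol is Rab followed by a number and at most 1 letter and 1 further digit. They were chosen by name and biotype, 59 of 55487 genes in the table and of 21936 protein-coding genes. Their RNA was measured by RNA-seq in primary lung fibroblasts, the collagen-producing cells of lung connective tissue, taken from wild-type (WT) C57BL/6 mice. One group of 3 samples was given phosphate-buffered saline (PBS) and another group of 3 was given rmCIRBP, a recombinant form of the mouse cold-inducible RNA-binding protein, at a dose of 1 µg/mL. All 6 cultures were first held in 0.1% serum for 24 h, and both treatments lasted 24 h. CIRBP is an RNA-binding protein that injured cells can release, and the title of the study names Toll-like receptors 2 and 4 and IL-6 as its subject. The sources used here do not say from how many animals or cultures the 3 samples of a group came, and the p-values below speak only to the spread among these libraries, part of which may be technical.

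A Rab protein switches between a GDP-bound form held in the cytosol and a GTP-bound form on a membrane, where it recruits effectors that move, tether or fuse vesicles. Exchange factors (GEFs) load GTP, GTPase-activating proteins (GAPs) end the active state, a prenyl transferase adds the lipid anchor, and GDI proteins take the inactive form back off the membrane. In fibroblasts this machinery carries procollagen and cytokines towards the surface, returns integrins and receptors from endosomes, and feeds lysosomes and autophagosomes.

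The libraries held 12105584 to 14262375 counts, and the upper limit for a gene without reads, taken as 3 counts, was 0.210 to 0.248 CPM (the gene's counts scaled to a common library total). That limit covers counting error only. The libraries carried fibroblast genes at high level, Col1a1 at 7614 to 11611 CPM and Col1a2 at 5840.1 to 9516 CPM, while endothelial, neutrophil and T cell markers were low. Not all 10 fibroblast markers were high or steady. Lum was at 0.575 to 2.63 CPM. Dcn was called higher after rmCIRBP (log2 fold change 1.21, edgeR adjusted p 0.0261). Vim (-0.88, adjusted p 0.00867) and Thy1 (-1.21, adjusted p 0.0042) were called lower. The 7 endothelial markers summed to 18.7 to 26.6 CPM in PBS and 4.38 to 7.17 CPM in rmCIRBP, where Tie1, Cldn5 and Emcn were at 0 in all libraries and Kdr (11.01, 14.4 and 16.97 to 1.39, 0.7899 and 1.4998 CPM) and Tek (7.31, 9.004 and 9.395 to 5.12, 3.52 and 3.9996 CPM) fell. The 8 neutrophil markers summed to 0 to 0.246 CPM in PBS and 1.21 to 1.68 CPM in rmCIRBP, with 5 of them, Ly6g, S100a9, Elane, Retnlg and Ngp, at 0 in all libraries. Csf3r and S100a8 had more reads in every treated library than in any PBS library but fell below the count filter of the main edgeR test. On 5 to 12 counts a treated library, DESeq2 called both higher (adjusted p 0.0168 and 0.0359). So did edgeR without a filter on low counts (0.0223 and 0.034). The T cell markers Cd3e and Cd3g were at 0 in all libraries. PBS replicate 1 and rmCIRBP replicate 2 were the highest of their groups in contractile smooth muscle genes, with Myh11 at 441, 207 and 177 CPM in PBS and 210.0, 657 and 66.6 CPM in rmCIRBP. Of the Rab genes, 4 were called with all libraries, 4 without rmCIRBP replicate 2 or replicate 3, 6 without PBS replicate 1, 2 without rmCIRBP replicate 1 and 1 without PBS replicate 2 or replicate 3. All results below compare bulk cultures, in which fewer cells of a type and less RNA per cell cannot be told apart.

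After rmCIRBP 4 members passed the test, all of them higher: Rab20, Rab32, Rab8b and Rab3c. Rab20, which acts in the maturation of endosomes and phagosomes, rose 2.79-fold. Rab32, which directs cargo to melanosomes and other lysosome-related organelles, rose 2.08-fold. Rab8b, which carries vesicles from the Golgi and recycling endosomes to the surface, rose 1.61-fold. Rab3c, known from regulated secretion in neurons and endocrine cells, rose from nearly no reads to 16 to 31 counts a library. By edgeR's quasi-likelihood test with Benjamini-Hochberg adjustment over all genes tested, at an adjusted p of 0.05, the called members were 4 of the 48 with enough counts to be tested (8.33%), against 11.5% of the 15801 genes tested. Among all genes, 6.74% were called higher and 4.77% lower. The share of the family that was called was thus near that of all genes. At an unadjusted p of 0.05 the count was 12 of 48 members, against 28.8% of all genes.

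Most of the family moved little. The log2 fold change of 39 of the 48 tested members lay within 0.5 of 0, 27 were above 0 and 21 below, and the median was 0.07 against -0.01 over all genes tested. The median standard error (SE) of a member's log2 fold change was 0.13, and the SE was at most 0.15 in 28 of these members. In 18 of 48 members (37.5%) the 3 rmCIRBP values lay all above or all below the 3 PBS values in CPM, 10 above and 8 below. Such separation was seen in 34.8% of all genes tested, 16% above and 18.8% below. Of these 18 members, 14 were not called. DESeq2 called the same 4 members higher and 1 further member, Rab13, lower, while it called 13.9% of all genes with an adjusted p.

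**Figure D1:**
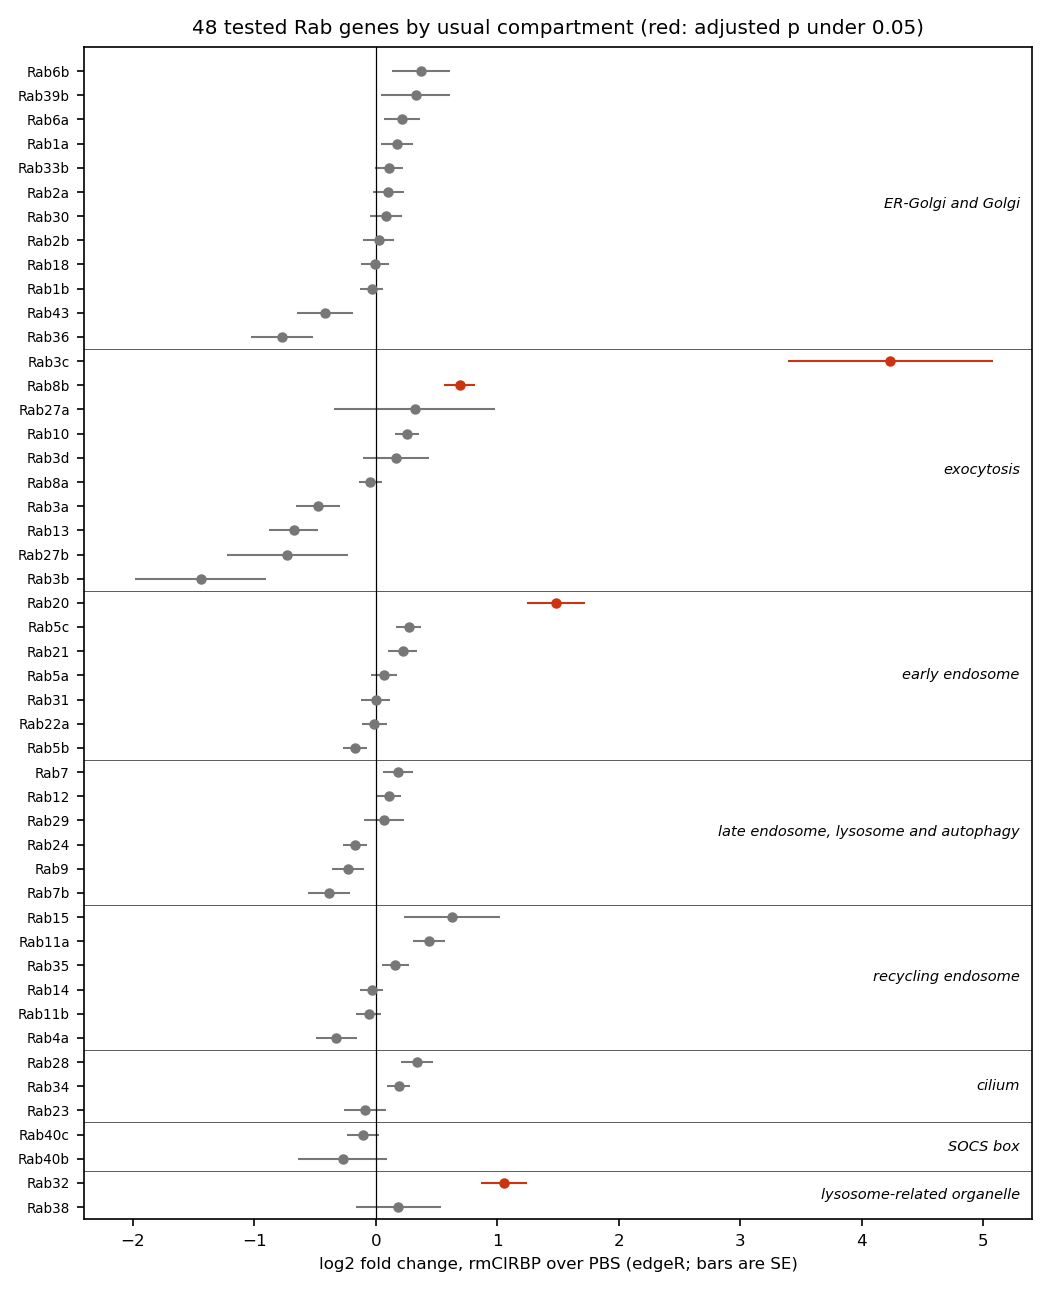
Log2 fold change (rmCIRBP over PBS) of the 48 tested Rab genes, with bars of 1 SE from edgeR. Rab20, Rab32, Rab8b and Rab3c passed an adjusted p of 0.05, all above 0, and 39 of the 48 lay within 0.5 of 0.

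The promoter sequences of the 4 genes that rose are shown because they rose together, beside that of Rab8a, the closest relative of Rab8b, which was not called. They are from RefSeq (GRCm38.p6), run 5′ to 3′ on the strand of the gene from 250 bases before to 50 bases after its annotated start, and lie at chr8:11478591-11478890 (minus strand, Rab20), chr10:10558158-10558457 (minus strand, Rab32), chr9:66919656-66919955 (minus strand, Rab8b), chr13:110280157-110280456 (minus strand, Rab3c) and chr8:72160950-72161249 (plus strand, Rab8a). Capitals mark every match, on either strand, to the motifs searched: the E-box CACGTG, the GC box GGGCGG, the CRE TGACGTCA, the AP-1 site TGANTCA, the GAS element TTCNNNGAA, the ISRE (GAAA, any 2 bases, GAAA) and the NF-kB kappaB consensus.
Rab20: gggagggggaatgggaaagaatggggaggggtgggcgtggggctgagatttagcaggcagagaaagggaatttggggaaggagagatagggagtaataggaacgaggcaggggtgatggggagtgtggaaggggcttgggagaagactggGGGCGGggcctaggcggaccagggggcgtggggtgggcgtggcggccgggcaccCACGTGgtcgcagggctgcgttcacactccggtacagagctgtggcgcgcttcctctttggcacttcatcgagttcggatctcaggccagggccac
Rab32: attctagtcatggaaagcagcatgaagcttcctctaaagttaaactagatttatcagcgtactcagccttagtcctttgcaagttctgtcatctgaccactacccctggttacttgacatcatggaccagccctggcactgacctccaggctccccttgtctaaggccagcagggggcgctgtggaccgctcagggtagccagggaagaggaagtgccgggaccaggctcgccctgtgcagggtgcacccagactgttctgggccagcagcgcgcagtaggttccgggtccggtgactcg
Rab8b: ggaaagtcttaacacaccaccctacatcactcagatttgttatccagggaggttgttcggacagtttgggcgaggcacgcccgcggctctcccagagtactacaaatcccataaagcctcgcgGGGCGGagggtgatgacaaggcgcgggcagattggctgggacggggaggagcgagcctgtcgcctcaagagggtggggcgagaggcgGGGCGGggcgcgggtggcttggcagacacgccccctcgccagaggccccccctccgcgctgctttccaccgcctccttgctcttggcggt
Rab3c: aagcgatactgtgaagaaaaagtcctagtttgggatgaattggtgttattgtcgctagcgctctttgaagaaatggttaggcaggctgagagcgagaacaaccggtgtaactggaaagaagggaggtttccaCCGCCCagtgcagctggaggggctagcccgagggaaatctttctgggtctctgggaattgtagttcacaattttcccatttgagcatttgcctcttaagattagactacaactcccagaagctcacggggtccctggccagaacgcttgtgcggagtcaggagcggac
Rab8a: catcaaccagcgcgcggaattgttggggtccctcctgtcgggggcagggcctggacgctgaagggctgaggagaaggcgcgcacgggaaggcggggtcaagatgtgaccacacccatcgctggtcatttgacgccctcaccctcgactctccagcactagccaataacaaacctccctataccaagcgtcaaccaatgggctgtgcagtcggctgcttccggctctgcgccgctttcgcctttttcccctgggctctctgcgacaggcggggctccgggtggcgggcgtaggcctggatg

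Rab20 held 1 E-box starting 46 bases and 1 GC box starting 100 bases before its start. Rab8b held 2 GC boxes, 127 and 40 bases before the start, and Rab3c held 1 on the opposite strand at 118 bases. The Rab3c window lies wholly inside the gene span of the count table (chr13:110054187-110280996). Its RefSeq start is thus downstream of the 5′ end of that span, and the distance for Rab3c is counted from the RefSeq start. No match overlapped another, and neither Rab32 nor Rab8a held any of the 7 motifs in this window. None of the 5 windows held the kappaB, ISRE, GAS, AP-1 or CRE letters. Over 32851 RefSeq promoters of the same length, the kappaB consensus was present in 4.51%, the ISRE in 3.44%, the GAS element in 8.30%, the AP-1 site in 7.81%, the CRE in 1.79%, the E-box in 7.15% and the GC box in 35.7%. A promoter entry matched 48 of the 59 members, of which 40 were among the tested genes, and 32 of those 40 held a GC box. The E-box was in 6 of the 40, the GAS element and the AP-1 site in 3 each, kappaB in 2, the CRE in 1 and the ISRE in 0. A member was counted if any of its entries matched, whereas the percentages above are per promoter entry, so the 2 measures are not alike. These matches describe letters only.

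The level of each gene was compared per length, as TPM (counts divided by the length of the union of annotated exons, scaled to a common total in each library). Rab7, the GTPase of late endosomes and lysosomes, had the highest level of the family at 383 ± 23.3 TPM in PBS and 425 ± 40.7 TPM in rmCIRBP. Next came Rab2a, of traffic between endoplasmic reticulum (ER) and Golgi, Rab5c of early endosomes, Rab1a of ER exit and Rab10 of exocytic carriers. Then followed Rab34, Rab1b, Rab6a, Rab12 and Rab5b. Over the 6 libraries the range of Rab7 lay above that of Rab2a, while those of Rab2a, Rab5c and Rab1a overlapped from each gene to the next. Rab1a lay above Rab10 in all libraries, Rab10, Rab34 and Rab1b overlapped, and Rab1b lay above Rab6a, which overlapped with Rab12 and Rab5b. In all, 11 members averaged at least 100 TPM over the 6 libraries, 27 lay between 10 and 100 TPM, 10 between 1 and 10 TPM and 11 under 1 TPM. The 5 highest members made up 37.9% ± 1.42 of the summed TPM of the family in PBS and 39.6% ± 1.38 in rmCIRBP (SD, n = 3). Summed over all 59 members, the level was 3511, 3306 and 3394 TPM in the PBS libraries and 3600.2, 3640.2 and 3665 TPM in the rmCIRBP libraries, so the rmCIRBP sums lay higher without overlap, and the means were 3403 and 3635 TPM. These sums were not tested, and no scaling beyond the library total was applied. Upper quartile factors were 0.975 to 0.998 in PBS and 1.006 to 1.017 in rmCIRBP, so that scaling would narrow the gap between the means. The factors of the main test (trimmed mean of M values) were 0.989, 1.017 and 1.028 in PBS. They were 0.996, 0.995 and 0.976 in rmCIRBP, and that scaling would widen the gap between the means.

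**Figure D2:**
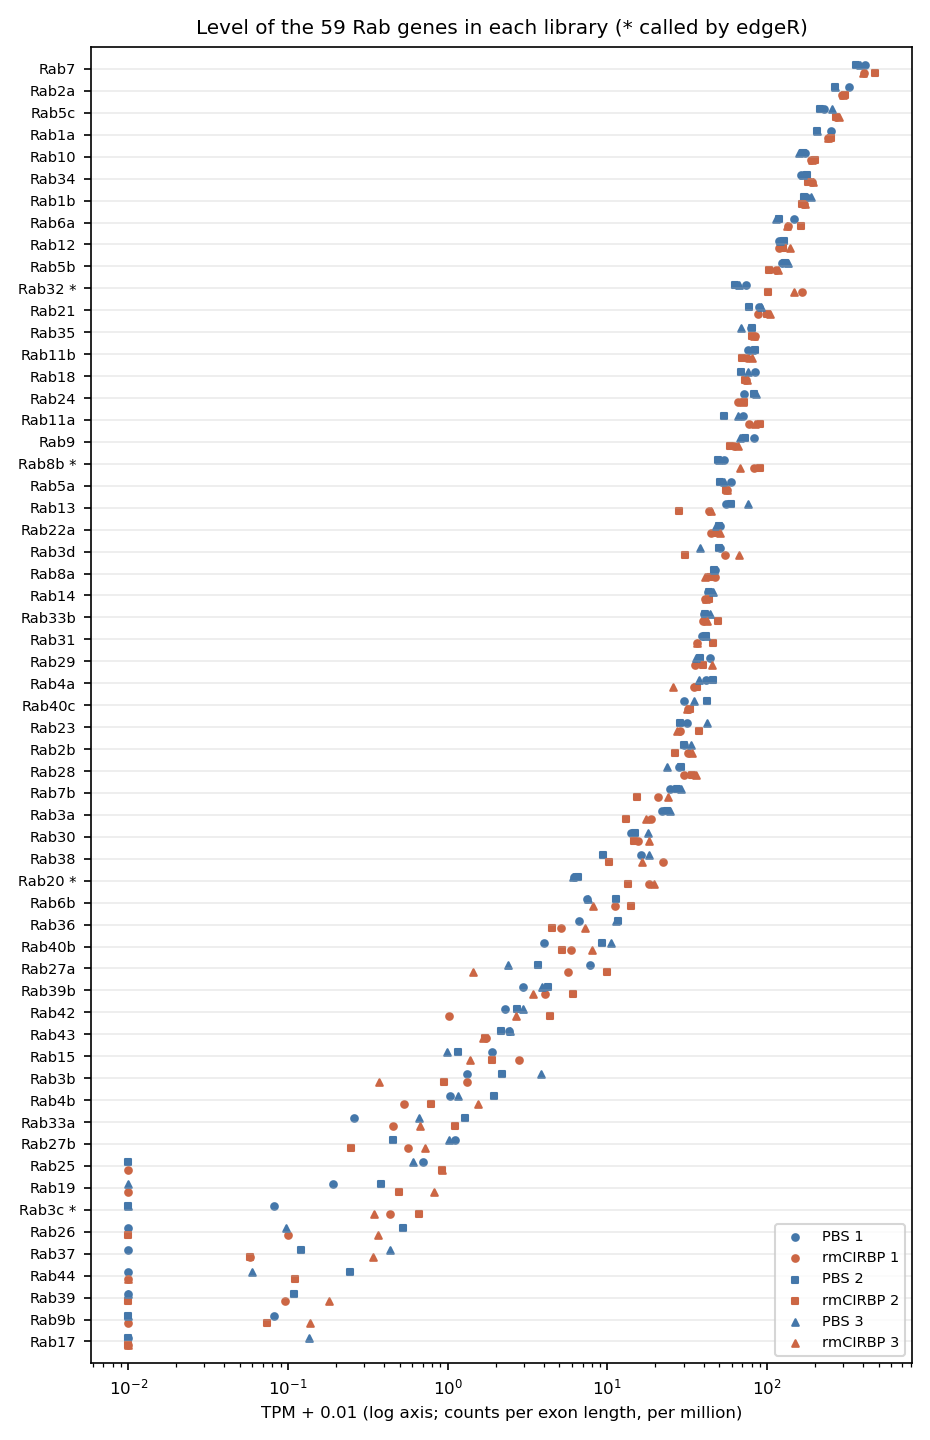
Level of all 59 Rab genes, each library 1 point, in TPM on a log axis after adding 0.01 so that values of 0 can be drawn. Rab7 is highest, 11 genes average at least 100 TPM, and 11 average under 1 TPM, among them Rab3c and Rab27b, which were tested.

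The 11 members too low to test were Rab25, Rab37, Rab17, Rab19, Rab33a, Rab9b, Rab4b, Rab39, Rab44, Rab26 and Rab42. Their highest count in any library was 13, and their sums over the 6 libraries ran from 1 to 51. Several are known from other tissues, as Rab25 and Rab17 from epithelia and Rab37, Rab26 and Rab44 from secretory or granule-bearing cells. Of the 11, 3 had reads in every library, and none had groups that lay apart. Without a filter on low counts, edgeR called none of the 11 (adjusted p 0.616 to 0.986). A small difference in these genes was not detectable at this depth.

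Among the 15 Rabs of the ER and Golgi, 12 were tested and none was called by edgeR or DESeq2, with 1 at an unadjusted p under 0.05. Rab2a, of traffic back to the ER, was at 199, 159 and 159.6 CPM in the PBS libraries and 180.2, 184 and 181 CPM in the rmCIRBP libraries. Rab1a, of traffic from the ER to the Golgi, was at 273, 219 and 218 CPM in the PBS libraries and 259.8, 268 and 258 CPM in the rmCIRBP libraries. In both, PBS replicate 1 was the highest library and the other PBS libraries lay below all rmCIRBP libraries. The log2 fold changes were 0.10 ± 0.13 for Rab2a and 0.18 ± 0.13 for Rab1a. Rab1b, a close relative of Rab1a, was at 114, 109 and 119 CPM in the PBS libraries and 110.3, 106 and 111 CPM in the rmCIRBP libraries, and its groups overlapped (-0.03 ± 0.09). Rab6a, of retrograde and secretory Golgi carriers, gave 0.21 ± 0.15, and 18.99% of its exon bases also lie in exons of Mrpl48 on the other strand. Rab18, of the ER and lipid droplets, gave -0.01 ± 0.12. The Golgi genes Rab33b, Rab2b, Rab30 and Rab6b and Rab39b, which is best known from neurons, gave between 0.02 (Rab2b) and 0.37 (Rab6b). The lowest fold change of the set was that of Rab36, of Golgi and lysosome positioning, at 11.7, 20.2 and 19.6 CPM in the PBS libraries and 8.99, 7.83 and 12.5 CPM in the rmCIRBP libraries. Its PBS replicate 1 overlapped the rmCIRBP range, and the log2 fold change of -0.77 ± 0.26 was not called (edgeR adjusted p 0.0944). Without a filter on low counts it passed as lower (adjusted p 0.0427, with 0.0427 to 0.102 over all settings that keep the 6 libraries), and it also passed without PBS replicate 1 (adjusted p 0.0363). Rab43 had groups that lay apart, 3.78, 3.304 and 3.79 CPM against 2.71, 2.66 and 2.57 CPM (adjusted p 0.272), but 75.4% of its exon bases are shared with a gene model on the same strand, and 59.3% of those of Rab2b with one on the other strand, so that both counts are uncertain.

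The early endosome held the Rab gene with the smallest p of the family. Rab20 (chr8:11453518-11478710, minus strand; GRCm38, as are all coordinates here) was at 2.46, 2.56 and 2.38 CPM in the PBS libraries and 7.24, 5.31 and 7.71 CPM in the rmCIRBP libraries. Every rmCIRBP library was above the highest PBS library, and rmCIRBP replicate 2 was the lowest of its group. The means were 2.47 ± 0.0886 CPM and 6.76 ± 1.27 CPM (SD, n = 3), and the log2 fold change was 1.48 ± 0.24 (edgeR adjusted p 0.00792). Rab20 passed in all settings tried, with adjusted p up to 0.0433 when 1 library was left out. Of its exon bases, 25.6% lie in exons of E230013L22Rik, a long non-coding RNA on the other strand. That gene had 4, 23 and 11 counts in PBS and 58, 27 and 48 counts in rmCIRBP (log2 fold change 1.72 ± 0.57, edgeR adjusted p 0.0926). Rab20 itself had 30, 31 and 34 counts in PBS and 99, 74 and 108 in rmCIRBP. No strand setting is given in the sources used here, so reads of the shared stretch cannot be assigned to either gene.

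The other 6 early endosome genes were not called. Rab5c, one of the 3 Rab5 isoforms that control homotypic fusion of early endosomes, was at 143, 133 and 157 CPM in the PBS libraries and 169, 167 and 174 CPM in the rmCIRBP libraries, and its groups did not overlap. Its log2 fold change was 0.27 ± 0.10 (edgeR adjusted p 0.135). Rab5b was lower in all 3 rmCIRBP libraries, at 148, 152 and 159 CPM in the PBS libraries and 136, 123 and 139 CPM in the rmCIRBP libraries, with a log2 fold change of -0.17 ± 0.10 (adjusted p 0.293). Rab5a differed by less than its spread (0.07 ± 0.10). Rab21, which takes part in integrin traffic, was at 127, 109 and 129.6 CPM in the PBS libraries and 127, 143 and 147 CPM in the rmCIRBP libraries, with overlapping groups (0.22 ± 0.12). Rab22a and Rab31, which act between endosomes and the trans-Golgi network, gave -0.01 ± 0.10 and -0.00259 ± 0.12.

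Of the 9 recycling endosome genes 6 were tested and none was called by edgeR or DESeq2, with 1 at an unadjusted p under 0.05. That gene was Rab11a, the main GTPase of the recycling endosome, at 59.97, 45.02 and 55.3 CPM in the PBS libraries and 65.6, 76.3 and 70.8 CPM in the rmCIRBP libraries. All 3 rmCIRBP values lay above the PBS values. Its log2 fold change was 0.44 ± 0.13 (edgeR adjusted p 0.0743). It passed without a filter on low counts (adjusted p 0.0451, with 0.0451 to 0.139 over the settings that keep all libraries) and without PBS replicate 1 (adjusted p 0.0405). Rab11b, its close relative, was at 132, 145 and 137 CPM in the PBS libraries and 130.4, 121 and 138 CPM in the rmCIRBP libraries, which overlapped (-0.06 ± 0.10). Rab35, of fast recycling and actin-rich protrusions, was at 63.9, 63.4 and 53.8 CPM in the PBS libraries and 67.9, 64.3 and 65.8 CPM in the rmCIRBP libraries, with a narrow gap between the groups (0.16 ± 0.11, adjusted p 0.372). Rab14, between Golgi and endosomes, gave -0.03 ± 0.09. Rab4a, of the fast recycling route, was lower in every rmCIRBP library (17.5, 18.03 and 12.7 CPM against 20.8, 22.5 and 18.4 CPM in PBS), with a log2 fold change of -0.33 ± 0.17 (adjusted p 0.247). Rab15, also an endosomal GTPase, was low, at 2.46, 1.49 and 1.26 CPM in the PBS libraries and 3.66, 2.44 and 1.79 CPM in the rmCIRBP libraries, and its groups overlapped.

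None of the 6 tested genes of late endosomes, lysosomes and autophagy was called by edgeR or DESeq2, and none had an unadjusted p under 0.05. Rab7 was at 304, 264 and 278 CPM in the PBS libraries and 302, 348 and 292 CPM in the rmCIRBP libraries, with rmCIRBP replicate 2 the highest library and the other libraries overlapping (0.18 ± 0.12, edgeR adjusted p 0.361). In 3 of the 6 the rmCIRBP values lay below all PBS values, as in 18.8% of all genes tested. Rab7b, which has been tied to the traffic of Toll-like receptors, was at 32.4, 35.3 and 37.5 CPM in the PBS libraries and 27.5, 19.96 and 31.3 CPM in the rmCIRBP libraries (-0.38 ± 0.17, adjusted p 0.186). Rab9, which returns mannose 6-phosphate receptors to the Golgi, was at 41.5, 35.6 and 33.02 CPM in the PBS libraries and 30.9, 28.8 and 32.2 CPM in the rmCIRBP libraries (-0.23 ± 0.13, adjusted p 0.289). Rab24, of late steps of autophagy, was at 41.4, 46.8 and 48.4 CPM in the PBS libraries and 37.7, 40.6 and 40.1 CPM in the rmCIRBP libraries (-0.17 ± 0.10, adjusted p 0.304), but 62.4% of its exon bases lie in exons of Prelid1 on the other strand, which had 19963 counts over the 6 libraries against 3404 for Rab24. Rab12, which sends transferrin receptor to degradation, was at 102, 108 and 102 CPM in the PBS libraries and 103, 109 and 118 CPM in the rmCIRBP libraries, with overlap (0.11 ± 0.10). Rab29, a partner of the kinase Lrrk2, gave 0.07 ± 0.16.

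The Rabs of exocytosis numbered 12, of which 10 were tested and 2 were called higher, against 6.74% of all genes tested. Rab8b (chr9:66843664-66919687, minus strand) was at 72.9, 65.1 and 66.4 CPM in the PBS libraries and 112, 121 and 90.6 CPM in the rmCIRBP libraries. The groups did not overlap, and the lowest treated library was rmCIRBP replicate 3. The means were 68.1 ± 4.16 CPM and 108 ± 15.5 CPM (SD, n = 3), with a log2 fold change of 0.69 ± 0.13 (edgeR adjusted p 0.0134). Rab8a, which shares most functions of Rab8b in surface delivery and ciliary growth, was at 62.7, 60.6 and 60.9 CPM in the PBS libraries and 62.9, 58.1 and 53.8 CPM in the rmCIRBP libraries, with a log2 fold change of -0.04 ± 0.10 (adjusted p 0.8002). The Rab8b call ended without PBS replicate 2 (adjusted p 0.0655), PBS replicate 3 (0.0598) or rmCIRBP replicate 1 (0.0608), each of which also lowered the calls over all genes from 1818 to between 723 and 863, and it passed without each of the other libraries.

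Rab3c (chr13:110054187-110280996, minus strand) had 3, 0 and 0 counts in the PBS libraries and 20, 31 and 16 counts in the rmCIRBP libraries, which is 0.246, 0 and 0 CPM and 1.46, 2.23 and 1.14 CPM. All 3 treated libraries held more reads than any PBS library, yet at 0.473 TPM after rmCIRBP the gene stayed among the lowest of the family. Summed over the groups, 67 counts against 3 gave a ratio of CPM of 20.7, with a 95% counting interval of 6.78 to 103. The fitted log2 fold change of 4.23 ± 0.84 depends on the prior count (edgeR adjusted p 0.0181). The call ended without PBS replicate 2 (adjusted p 0.0767), PBS replicate 3 (0.0708) or rmCIRBP replicate 1 (0.0594). Neuronal markers gave 16.3 to 28.8 CPM in PBS and 29.2 to 32.8 CPM in rmCIRBP in sum over 5 genes, and none of the 3 tested was called. Most of the sum was Tubb3, at 23.9, 15.4 and 12.9 CPM in PBS and 28.7, 28.2 and 25.4 CPM in rmCIRBP. Tubb3 was higher in every treated library (log2 fold change 0.68, edgeR adjusted p 0.0956). It passed in edgeR without a filter on low counts (adjusted p 0.0253) and not in DESeq2 (0.0522). Syt1 (2.96, 3.39 and 2.52 CPM in PBS and 3.44, 0.431 and 5.71 CPM in rmCIRBP) and Syp (1.89, 1.24 and 0.841 and 0.658, 0.575 and 1.29 CPM) were present in all libraries, and Snap25 and Rbfox3 had at most 1 count in any library. The part of such cells in the Rab3c counts was not tested.

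The other Rab3 genes did not pass. Rab3a, of synaptic and other regulated secretion, was at 14.05, 14.8 and 15.4 CPM in the PBS libraries and 11.9, 8.19 and 10.999 CPM in the rmCIRBP libraries (-0.48 ± 0.18, edgeR adjusted p 0.125), with every treated library below every PBS library. Rab3b was low, at 1.31, 2.15 and 3.79 CPM in the PBS libraries and 1.32, 0.934 and 0.357 CPM in the rmCIRBP libraries (-1.44 ± 0.54, adjusted p 0.126), and PBS replicate 1 lay within the treated range. Rab3d, the most abundant Rab3 gene here, was at 61.1, 59.1 and 44.9 CPM in the PBS libraries and 65.4, 36.3 and 78.99 CPM in the rmCIRBP libraries and its treated libraries lay on both sides of the PBS range (0.16 ± 0.27).

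Rab13, of tight junctions, actin-rich protrusions and cell migration, was lower in every rmCIRBP library, at 36.2, 38.3 and 48.7 CPM in the PBS libraries and 28.2, 18.2 and 28.9 CPM in the rmCIRBP libraries. The log2 fold change was -0.68 ± 0.20 (edgeR adjusted p 0.0663). It was called lower by DESeq2 (adjusted p 0.0283), with upper quartile scaling (0.0478) and without a filter on low counts (0.0199), and the adjusted p ran from 0.0199 to 0.0677 over the settings that keep all libraries. Rab10, which carries GLUT4 and other cargo to the surface, was at 173, 165 and 157 CPM in the PBS libraries and 189.5, 199 and 189.8 CPM in the rmCIRBP libraries, without overlap (0.26 ± 0.10, adjusted p 0.145). Rab27a and Rab27b, of secretory granules and exosomes, gave 0.32 ± 0.66 and -0.73 ± 0.50, with SEs among the widest of the family.

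Of the 4 Rabs of lysosome-related organelles, 2 were tested and 1 was called higher, against 6.74% of all genes tested. Rab32 (chr10:10545002-10558265, minus strand) was at 49.5, 41.2 and 43.9 CPM in the PBS libraries and 109.6, 66.9 and 97.5 CPM in the rmCIRBP libraries. Every treated library exceeded every PBS library, and rmCIRBP replicate 2 was the lowest of its group. The means were 44.9 ± 4.25 CPM and 91.3 ± 21.99 CPM (SD, n = 3), with a log2 fold change of 1.06 ± 0.19 (edgeR adjusted p 0.0117). Per length, Rab32 went from 68.1 ± 5.73 TPM to 138 ± 32.8 TPM, which is close to the level of Rab6a and Rab12 after rmCIRBP. The call ended without PBS replicate 2 (adjusted p 0.0602) or PBS replicate 3 (0.0549) and passed without each of the other 4. Rab38, the relative that shares melanosome functions with Rab32, was at 7.31, 4.13 and 8.06 CPM in the PBS libraries and 9.94, 4.52 and 7.28 CPM in the rmCIRBP libraries, with overlapping groups (0.19 ± 0.35, adjusted p 0.767). Melanocyte markers summed over 5 genes gave 3.04 to 4.05 CPM in PBS and 1.44 to 2.29 CPM in rmCIRBP, and Tyr and Dct were at 0 in all libraries. Most of the sum was Pmel, at 2.96, 3.39 and 2.45 CPM in the PBS libraries and 1.97, 1.36 and 1.86 CPM in the rmCIRBP libraries. It was lower without overlap and without a call (edgeR adjusted p 0.152). Mlana was at 0.661 CPM or less.

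None of the 3 cilium genes nor of the 2 SOCS box genes was called by edgeR or DESeq2, and 1 of these 5 had an unadjusted p under 0.05. Rab34, needed early in cilium formation, was at 112, 119 and 113 CPM in the PBS libraries and 130.4, 121 and 131 CPM in the rmCIRBP libraries (0.19 ± 0.09, edgeR adjusted p 0.237), without overlap. Rab28, of the ciliary base, was at 36.4, 36.6 and 30.01 CPM in the PBS libraries and 38.7, 43.02 and 45.9 CPM in the rmCIRBP libraries, also without overlap (0.34 ± 0.13, adjusted p 0.134). Rab23, a repressor of Hedgehog signalling, was at 74.3, 65.8 and 97.5 CPM in the PBS libraries and 67.1, 87.1 and 63.6 CPM in the rmCIRBP libraries, and its groups overlapped (-0.09 ± 0.17). Rab40c and Rab40b carry a SOCS box that recruits a ubiquitin ligase. Rab40c was at 26.6, 36.4 and 30.2 CPM in the PBS libraries and 28.2, 28.8 and 27.6 CPM in the rmCIRBP libraries (-0.11 ± 0.13) and Rab40b, much lower, gave -0.27 ± 0.37, both with overlap.

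**Figure D3:**
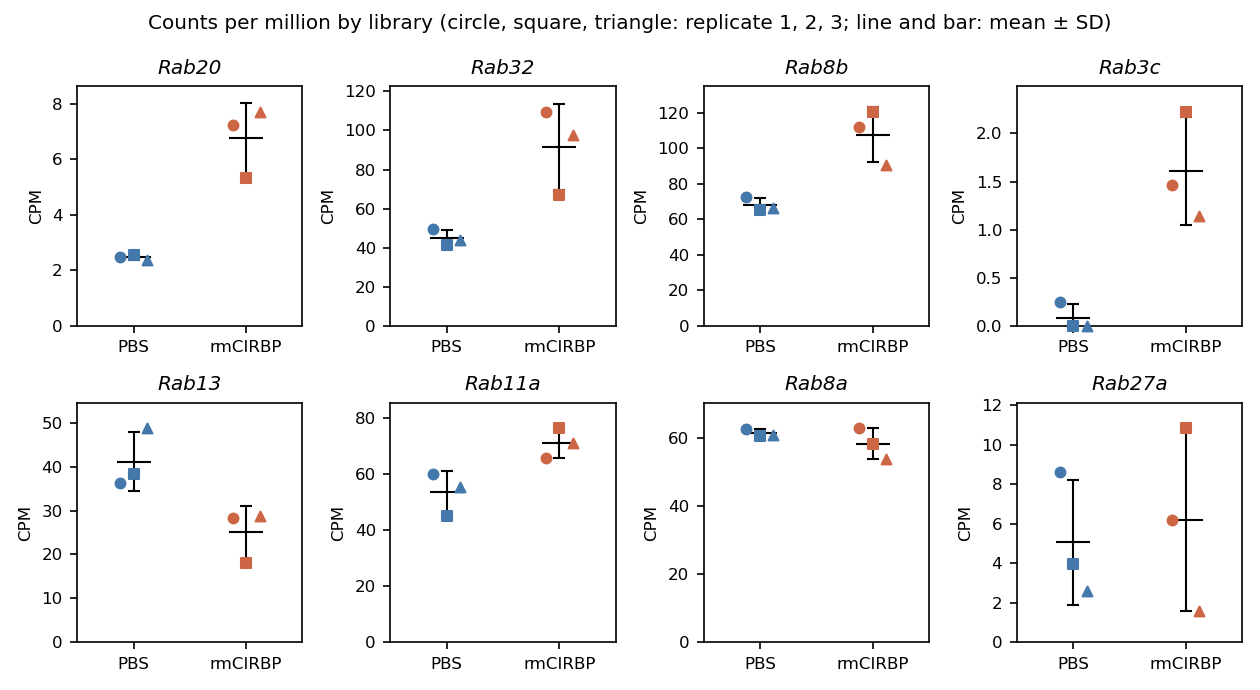
CPM in each of the 6 libraries for selected Rab genes, each panel with its own axis from 0, with the mean and a bar of 1 SD (cut at 0 for Rab3c in PBS). The rmCIRBP points of Rab20, Rab32, Rab8b and Rab3c lie above all PBS points, those of Rab11a lie above and those of Rab13 below without a call, and Rab8a and Rab27a overlap.

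Close relatives can share effectors, so the share that 1 gene takes of a pair or trio was computed per length in each library. Rab8b made up 53.5, 51.5 and 51.9% of the summed TPM of Rab8a and Rab8b in PBS and 63.8, 67.2 and 62.5% in rmCIRBP. The means were 52.3% ± 1.05 and 64.5% ± 2.47 (SD, n = 3), so that the near-even split in PBS became one with more Rab8b in every treated library. Rab11a made up 44.1% ± 4.75 of Rab11a and Rab11b in PBS and 52.8% ± 3.16 in rmCIRBP. Within the Rab5 trio, Rab5c went from 55.9% ± 1.59 to 62.1% ± 0.808 and Rab5b from 31.02% ± 1.45 to 25.3% ± 0.9696, while Rab5a was at 13.1% and 12.6%. Rab32 made up 82.6% ± 4.26 of Rab32 and Rab38 in PBS and 89.7% ± 1.41 in rmCIRBP. In these 5 shares the groups did not overlap, and each had an exact two-sided permutation p of 0.1, the smallest that 3 against 3 can give, so no share could pass 0.05. The Rab1a share of Rab1a and Rab1b overlapped (55.2% ± 3.48 and 58.99% ± 1.09, p 0.3). In all, 12 shares were computed, chosen after the values were seen, and the adjusted p of the 5 was 0.24.

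**Figure D4:**
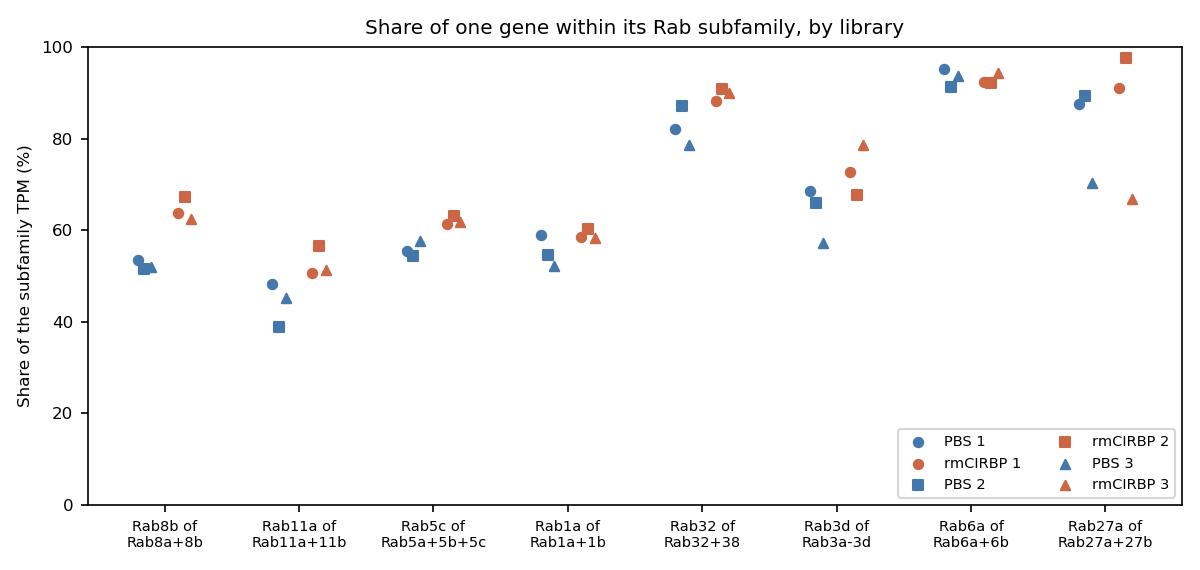
Share of the summed TPM of a pair or trio of close relatives taken by 1 gene, in percent, 1 point per library (blue PBS, red rmCIRBP). The Rab8b share is 51.5% to 53.5% in PBS and 62.5% to 67.2% in rmCIRBP.

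The genes that act on Rabs or are recruited by them were counted from a list of 184 symbols, of which 166 were tested. Of these, 10 were called (6.02%, against 11.5% of all genes), 6 higher and 4 lower, with a median log2 fold change of -0.04. Micall2, an effector of Rab8 and Rab13 that links them to actin and junctions, had the smallest p. It was at 15.1, 12.4 and 15.4 CPM in the PBS libraries and 82.2, 88.1 and 73.1 CPM in the rmCIRBP libraries, with a wide gap between the groups (14.3 ± 1.65 against 81.1 ± 7.58 CPM, log2 fold change 2.53 ± 0.13, edgeR adjusted p 4.78e-05). It passed in all settings tried. Beside it, Rab8b rose, Rab8a was not called and Rab13 was lower without passing. Sytl2, an effector of Rab27, rose from 5.504, 6.77 and 7.08 to 16.01, 14.6 and 10.9 CPM (log2 fold change 1.13 ± 0.20, adjusted p 0.0112), and neither Rab27 gene passed. Plin3, a lipid droplet coat protein that has been reported to bind Rab9, fell from 99.7, 118 and 139 to 79.7, 57.95 and 77.5 CPM (-0.70 ± 0.16, adjusted p 0.0314). These were the 3 effectors called of 54 tested (5.56%, against 11.5% of all genes). Ehbp1 and Appl2, effectors of Rab8 and Rab10 and of Rab5, and Rufy1, of Rab4 and Rab14, were lower in every treated library with edgeR adjusted p of 0.0536, 0.0571 and 0.0535, and DESeq2 called all 3 lower.

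Of the 49 GEFs tested, 2 were called, both lower (4.08%, against 4.77% of all genes called lower). Rab3il1, a GEF known for Rab3a and Rab8, was at 18.1, 37.01 and 35.97 CPM in the PBS libraries and 8.33, 1.29 and 6.499 CPM in the rmCIRBP libraries, a log2 fold change of -2.46 ± 0.55 (edgeR adjusted p 0.0276). Its relative Rab3ip (Rabin8) was not called (-0.33 ± 0.15, adjusted p 0.196). Dennd2a, a GEF of Rab9, fell from 48.5, 52.9 and 47.96 to 36.8, 33.03 and 34.7 CPM (-0.48 ± 0.10, adjusted p 0.0225). Of the 40 GAPs tested, 2 were called (5%, against 11.5% of all genes). Tbc1d13, a GAP of Rab35, rose from 53.97, 63.3 and 57.4 to 86.3, 79.1 and 83.99 CPM (0.55 ± 0.10, adjusted p 0.0123), and Tbc1d12, which binds Rab11, fell from 23.1, 24.3 and 23.2 to 13.2, 15.01 and 14.8 CPM (-0.68 ± 0.12, adjusted p 0.01304). Hps1 and Hps4, which form the GEF of Rab32, gave -0.02 ± 0.12 and -0.30 ± 0.16. Ankrd27 (Varp), an effector of Rab32, gave -0.04 ± 0.17, and none of these 3 was called.

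Among 17 genes of prenylation and membrane recycling 2 rose slightly (11.8%, against 6.74% of all genes called higher). Rabggta, the alpha subunit of the transferase that lipidates Rabs, was at 12.2, 13.3 and 14.9 CPM in the PBS libraries and 17.99, 19.2 and 19.1 CPM in the rmCIRBP libraries (0.51 ± 0.13, edgeR adjusted p 0.0461), while its beta subunit Rabggtb gave -0.09 ± 0.13 (adjusted p 0.703). Arl6ip5, a PRA1 family protein, rose from 99.6, 92.4 and 105 to 139, 119 and 133 CPM (0.43 ± 0.11, adjusted p 0.0394). The GDP dissociation inhibitor Gdi2 was not called (-0.19 ± 0.11), nor was the escort protein Chm (-0.14 ± 0.12). Of 6 Rab-like and large Rab GTPases tested, 1 was called higher (16.7%, against 6.74% of all genes). This was Cracr2a, which joins a calcium-binding EF-hand region to a Rab domain. It was at 2.96, 4.87 and 3.09 CPM in the PBS libraries and 14.3, 5.24 and 13.5 CPM in the rmCIRBP libraries, and rmCIRBP replicate 2 lay close to the PBS range (1.63 ± 0.40, adjusted p 0.0394).

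Micall2 was called whichever library was left out, whereas the calls of the other 9 regulators each ended without at least 1. For Sytl2 this was rmCIRBP replicate 1 (adjusted p 0.0555). The Tbc1d13 call ended without PBS replicate 3 (0.0558) or rmCIRBP replicate 1 (0.0643), and the Tbc1d12 call without PBS replicate 2 (0.0621) or rmCIRBP replicate 1 (0.0664). The Plin3 call ended without PBS replicate 2 or 3 or rmCIRBP replicate 1 (0.0722 to 0.111). For Dennd2a (0.0557 to 0.0956) and Rab3il1 (0.0515 to 0.103) rmCIRBP replicate 3 was a further such library. The Arl6ip5 (0.0526 to 0.138) and Cracr2a (0.0788 to 0.1404) calls held only without rmCIRBP replicate 2, and the Rabggta call ended without any 1 of the 6 (0.0747 to 0.134). With upper quartile scaling the Arl6ip5 (0.0606) and Rabggta (0.069996) calls ended too. The Rabggta call also ended with library size scaling (0.0623) and without a filter on low counts (0.0639), and the Cracr2a call with limma voom (0.0825).

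**Figure D5:**
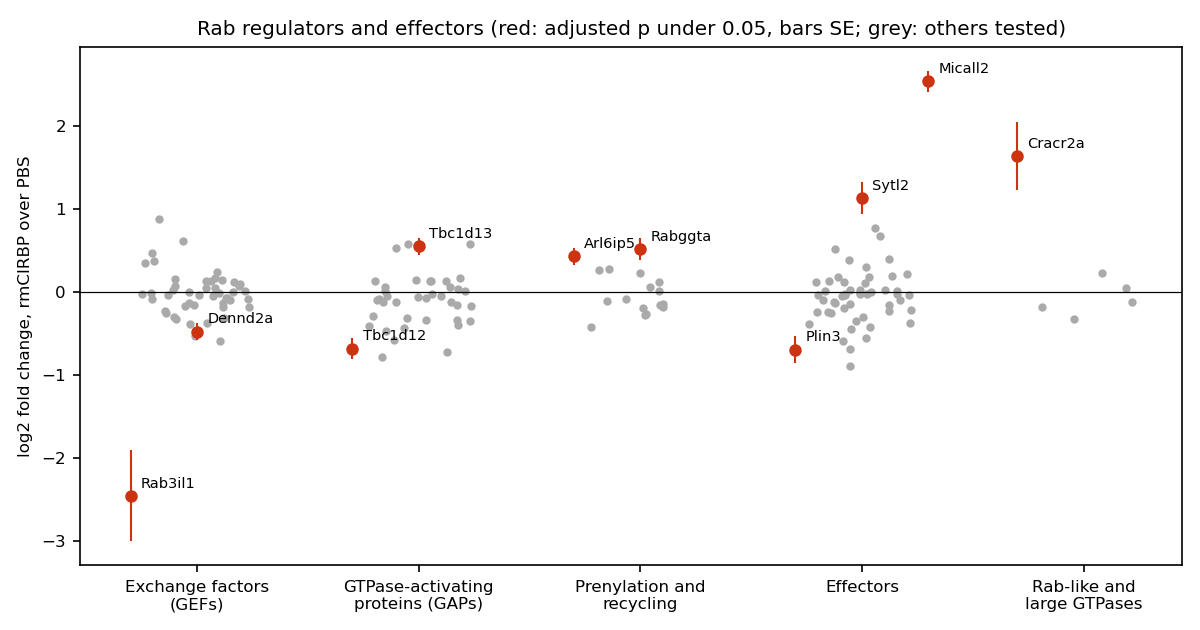
Log2 fold change (rmCIRBP over PBS) of the 166 tested regulators and effectors of Rabs by class, with bars of 1 SE on the 10 called genes. Micall2 at 2.53 and Rab3il1 at -2.46 lie farthest from 0.

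Rab20, Rab32 and several exocytic Rabs are also expressed in myeloid cells, so macrophage and leukocyte markers are given beside them. Their summed level over 10 genes was 27.6 to 35.03 CPM in PBS and 32.4 to 56.7 CPM in rmCIRBP, and none of the 10 was at 0 in all libraries. Of 7 tested, Adgre1 (1.56, 1.9 and 1.47 to 10.4, 11.2 and 5.07 CPM) and Marco (0.164, 0.165 and 0.2805 to 8.48, 14.4 and 6.21 CPM) rose and Mrc1 fell, while Ptprc (0.493, 2.07 and 1.19 to 1.97, 4.24 and 1.71 CPM) and Cd68 (6.08, 7.68 and 7.78 to 7.896, 4.88 and 3.14 CPM) were not called, nor were Csf1r (11.3, 10.4 and 8.06 to 13.96, 13.9 and 11.5 CPM, without overlap) and Laptm5 (5.26, 8.095 and 6.87 to 5.26, 5.601 and 3.36 CPM). In the treated libraries Adgre1 and Marco were highest in replicate 2 and lowest in replicate 3, as were Rab8b and Rab3c, whereas Rab20 and Rab32 were lowest in replicate 2. Of the other listed markers, Ptprc, Laptm5 and Mrc1 had the order of Adgre1. Csf1r and Cd68 were highest in replicate 1, and Itgam, below the count filter, was lowest in replicate 1. These orders were compared after the values were seen, and no relation was tested. Mast cell markers gave 13.5 to 21.9 CPM in PBS and 3.303 to 4.36 CPM in rmCIRBP over 6 genes. In that list Kit fell (11.7, 20.8 and 17.04 to 2.34, 1.15 and 2.43 CPM), Cpa3 was higher in every treated library without a call (1.48, 1.07 and 0.2103 to 1.97, 2.08 and 1.93 CPM, adjusted p 0.216), and Fcer1a and Tpsb2 were at 0 in all libraries. The part of such cells in the Rab values was not tested.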

How the data were processed

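The 6 mouse lung fibroblast libraries were analysed. The deposited table holds raw counts per gene, whole numbers that the authors made with featureCounts on GRCm38 (mm10), with DESeq2 and R 4.1.2 also named, per the submitters' processing notes. Per the labels' protocols, libraries were polyA-selected TruSeq mRNA. Aligner, strand setting and handling of multi-mapped reads were not given in the sources used here. Counts of near-identical and antisense genes are therefore uncertain. Each count column was assigned to the sample whose title holds its group and number, and 0 count columns were left unmapped. No 2 libraries of the same group agreed within sampling noise.

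Counts were tested in R 4.3.3 with edgeR 4.0.16: filterByExpr by group, trimmed mean of M values, a two-sided quasi-likelihood F test on treatment, and Benjamini-Hochberg adjustment over 15801 genes at 0.05. An SE is the log2 fold change over the square root of F. CPM are counts scaled by the library total. TPM use exon unions of GENCODE (GRCm38), which held all 59 members at the same coordinates. DESeq2 1.42.0, limma 3.58.1 voom, other scalings, filters and thresholds, a replicate block and leaving out each library were alternatives. The test was also run on simulated counts with 200 changed genes and the same dispersion for every gene, a simpler setting than these libraries. Replicate numbers are not said to pair the samples, and the main fit did not pair them. The members, lists and alternatives were chosen with earlier results of these data known. All 59 members are accounted for. Called genes and those with the highest level in each role are given in full. Other genes named were chosen after their values were seen.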

Additional observations from a re-analysis of the deposited data

How the results depend on the processing

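Leaving out 1 library gave 723 to 2144 calls over all genes, 1 to 6 Rab members and 1 to 13 regulators, with the fewest Rab members without PBS replicate 2 or 3 and the fewest regulators without rmCIRBP replicate 1. Each of these 3 libraries, when left out, ended the Rab8b and Rab3c calls, and either of the 2 PBS libraries that of Rab32. An adjusted p of 0.01 gave 608 genes and 1 Rab member (Rab20), and one of 0.1 gave 3066 genes and 7 Rab members. With no filter on low counts, 7 Rab members and 17 regulators were called, Rab13 and Rab36 lower and Rab11a higher being added. Upper quartile scaling gave 925 higher and 1022 lower calls over all genes against 1065 and 753, 4 higher and 1 lower Rab members, and 4 higher and 11 lower regulators against 6 and 4, and library size scaling gave 5 and 6 regulators. The same 4 Rab members were called in each of the 10 settings that keep all libraries and the threshold. With a replicate block the calls were 1258 genes, the same 4 Rab members and 5 regulators, against 1818, 4 and 10 without it, the Dennd2a, Rab3il1, Arl6ip5, Rabggta and Cracr2a calls having ended. Same-numbered libraries correlated at -0.11, -0.17 and 0.25, and unlike-numbered ones at -0.33 to 0.36. The sources used here do not say whether equal numbers mark a shared animal or batch. With 3 libraries a group these correlations cannot settle it. When a library was left out, fold changes near 0 changed sign, spanning -0.18 to 0.0271 for Rab40c, -0.24 to 0.0712 for Rab23, -0.10 to 0.44 for Rab38, -0.0893 to 0.43 for Rab3d, -0.0941 to 0.00414 for Rab8a, -0.35 to 0.98 for Rab27a, -0.19 to 0.12 for Ankrd27, -0.0863 to 0.0694 for Hps1 and -0.23 to 3.42e-04 for Rabggtb (log2). The causes were not tested. Scaling by the longest transcript kept the 10 highest Rabs. Depth limits the 11 untested members and Rab3c.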

Other observations

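Rab27a, which drives granule and exosome release, varied more between libraries of a group than between the groups, at 8.63, 3.97 and 2.59 CPM in the PBS libraries and 6.21, 10.8 and 1.57 CPM in the rmCIRBP libraries. It was highest in PBS replicate 1 and rmCIRBP replicate 2 within each group. These were also the libraries highest in the smooth muscle genes Acta2 (2687, 1333 and 1131 CPM in PBS and 3137, 6233 and 1328 CPM in rmCIRBP), Myh11 (441, 207 and 177 and 210.0, 657 and 66.6 CPM) and Actg2 (350.3, 131 and 119 and 198, 639 and 48.1 CPM). Of the 7 smooth muscle and pericyte markers, these 3 and Des had the libraries of each group in the order of Rab27a, Cnn1 only in the treated group, and Rgs5 (0.904, 1.32 and 1.47 CPM in PBS) and Cspg4 (5.09, 7.93 and 14.7 CPM in PBS) in the opposite order in PBS. Rab3d had the order of Rab27a in PBS (61.1, 59.1 and 44.9 CPM). It ran the other way in the treated group, lowest in rmCIRBP replicate 2 at 36.3 CPM against 65.4 and 78.99 CPM. With 3 libraries a group no relation was tested, and these genes were singled out after their values were seen.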
